A study of Mus musculus with 4 samples.

Results

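The genes described here encode the enzymes of glycolysis, the pentose phosphate pathway and pyruvate entry into mitochondria, the transporters that take up glucose, amino acids and iron or export lactate, and the oxygen-sensitive transcription factor Hif1a. They were chosen by name, 33 genes in all, through the gene symbols of the array's platform annotation, and each was represented by the probe with the highest mean signal over the 4 arrays. A probe was listed for 28 of the 33. Gpi1, Eno1, Ldhb, G6pdx and Pgd had no listed probe and were not analysed here. Among the 33 genes, the pentose phosphate pathway was thus represented by its non-oxidative enzymes alone. The probe passed the detection filter for 26 genes, out of 9361 genes and 13338 probes tested on the whole array.

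The OX86 group consisted of 2 arrays of RNA from regulatory T cells sorted from mouse spleen by a green fluorescent Foxp3 reporter and activated overnight with anti-CD3 together with OX86, an antibody that stimulates OX40, a costimulatory receptor of T cells. The isotype group consisted of 2 arrays of the same kind of cells activated overnight with anti-CD3 and rat IgG. Mice of both groups were C57Bl/6, aged 8 to 12 weeks, and carried the reporter. Arrays within a group carry replicate numbers in the labels, which do not say if cultures or mice were separate or pooled, so a p-value here measures the spread between arrays, and that spread may be technical. In bulk RNA of this kind, fewer cells of a type and less RNA per cell cannot be told apart.

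As background, glycolysis splits glucose into pyruvate in the cytosol and yields ATP quickly, and activated T cells run it fast even with oxygen present, passing much of the pyruvate on as lactate. The pentose phosphate pathway branches off after glucose phosphorylation and supplies NADPH and ribose for nucleotide synthesis. Amino acid transporters and the transferrin receptor on the surface of activated lymphocytes feed growth, and the transcription factors Hif1a and Myc are known inducers of many of these genes in T cells. Regulatory T cells are known to depend less on glycolysis than effector T cells, and costimulation through receptors of this kind is one of the signals that can alter their metabolism.

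Signals are given as normalized log2 values, in which a step of 1 is a doubling of the signal, and a log2 change is OX86 minus isotype with its 95% interval from limma. The median deposited signal was 316.0 and 321.8 on the OX86 arrays and 324.7 and 296.4 on the isotype arrays, and between 45.9% and 53.2% of probes were detected on an array. Isotype 2 had the fewest detected probes and the lowest correlations with the other arrays, 0.968 to 0.972 over tested probes, which are not independent replicates. Of the T-cell markers 5 of 6, and of the regulatory T-cell markers 6 of 6, were detected, Foxp3 among them. Of the other lists, 0 of 7 myeloid markers passed the filter. B-cell markers passed for 3 of 6, with summed linear signals of 285.8 and 248.6 on OX86 arrays and of 256.1 and 269.6 on isotype arrays, while Pax5 and Blk were below detection. Of the 3 that passed, Ms4a1 was apart between groups, at 6.38 and 6.18 on the OX86 arrays and 5.79 and 5.15 on the isotype arrays, a log2 change of 0.81 (0.13 to 1.49) with limma's p at 0.0267 unadjusted and 0.9999 adjusted, while Cd79a had -0.26 and Cd79b -0.16. The NK and CD8 list passed for 3 of 6, while Cd8a, Ncr1 and Klrb1c were below detection. The summed linear signals of this list were higher than those of the B-cell list, at 1212.6 and 1237.0 on OX86 arrays and 1112.6 and 1273.2 on isotype arrays. Cd8b1 was the brightest of its 3 tested genes, at log2 signals of 9.61 and 9.54 on OX86 arrays and 9.57 and 9.79 on isotype arrays. The log2 change was -0.098 for Cd8b1, 0.53 (-0.48 to 1.53) for Nkg7 and 0.21 for Eomes, and the groups overlapped in each. The erythroid and platelet list passed for 2 of 6. For Hba-a1, which encodes a haemoglobin chain, the normalized log2 signal was 10.11 and 9.14 on OX86 arrays, against 10.69 and 9.26 on isotype arrays. The other, Itga2b, was apart between groups, at 5.97 and 5.97 on OX86 arrays and 5.77 and 5.45 on isotype arrays. Its log2 change was 0.36 (-0.16 to 0.88), and it was detected on 1 of the isotype arrays. The part of these cells in the results below was not tested.

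The comparison asked how the expression of metabolic genes differs when OX40 is engaged during activation. Of the 26 tested genes, 0 passed in limma with Benjamini-Hochberg adjustment over all probes, as was true of 0% of all 13338 probes, and the adjusted p was 0.9999 for each of the 26. The mean was lower with OX86 for 21 of 26 genes, or 80.8%, against 49.0% of all tested probes. That split depends on the scaling: when arrays were scaled to equal medians instead of quantile-normalized, 8 of 26 were lower, while the median change of all tested probes was 0.12 instead of 0.0051, and 20 of 26 then lay below that median. Without isotype 2, the array that stood apart, 16 of 26 were lower. The median log2 change of the 26 genes was -0.055, against 0.0051 over all tested probes. Single changes ran from -0.55 for Slc16a1 to 0.21 for Hk1.

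The groups did not overlap, with OX86 the lower, for 5 genes, Slc16a1, Slc1a5, Hk2, Dlat and Pfkm. That is 19.2% of the 26, against 13.1% of all tested probes. With median scaling the changes of the first 4 of these stayed below 0, and that of Pfkm was 0.036, below the median of 0.12 over all tested probes. Each of the 5 was among the 9 genes whose change was over 1.5 times smaller without background correction. For 0 of the 26 did both OX86 arrays lie above both isotype arrays, against 13.9% of all tested probes. An unadjusted p under 0.05 in limma was reached by Slc16a1 alone, 3.85% of the 26, against 3.33% of all tested probes.

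**Figure D1:**
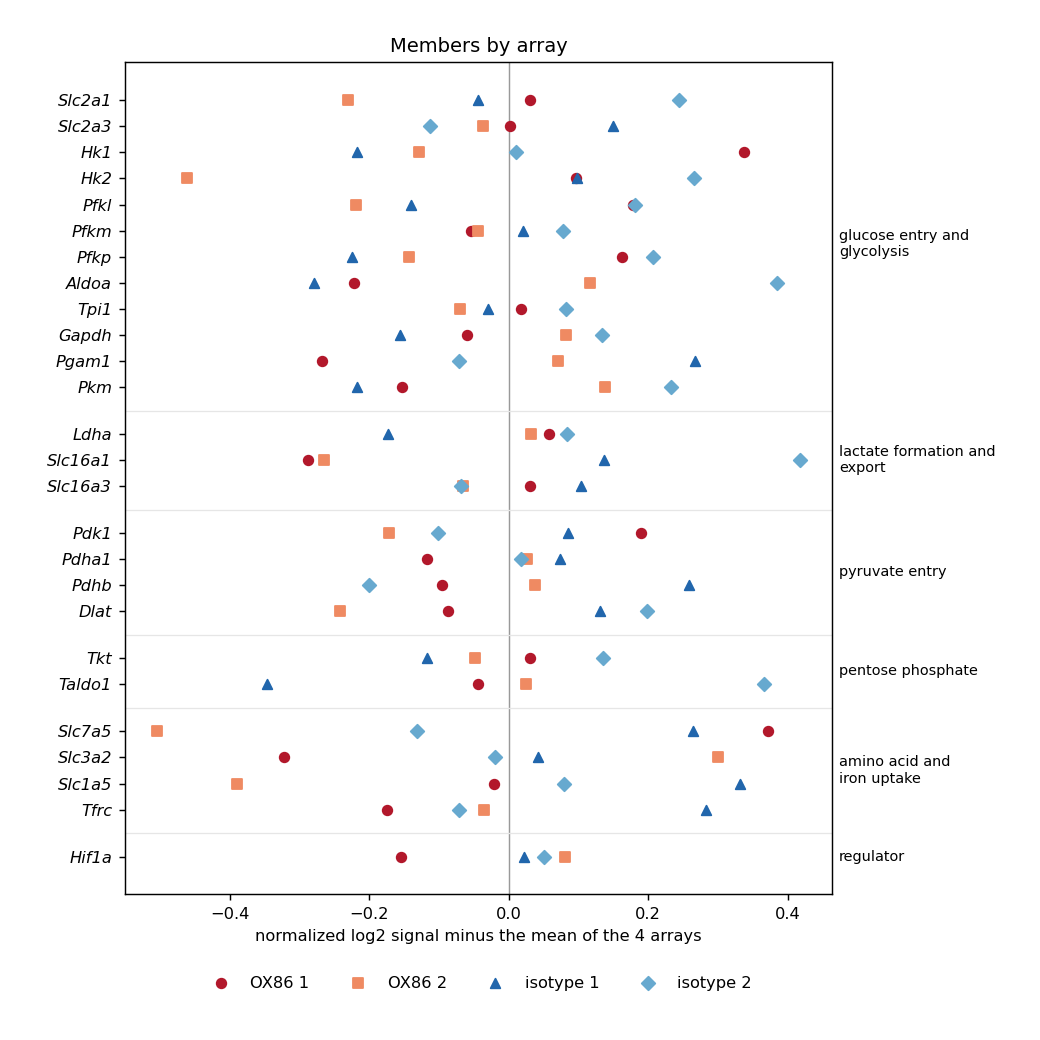
Normalized log2 signal of each of the 26 detected genes on each array, as the difference from that gene's mean over the 4 arrays, with genes grouped by role. Both OX86 arrays (red and orange) lie left of both isotype arrays (blue) for Slc16a1, Slc1a5, Hk2, Dlat and Pfkm, and the groups overlap for the other 21 genes.

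Glucose uptake was represented by the transporters Slc2a1, which is induced when T cells are activated, and Slc2a3, the high-affinity transporter of lymphocytes. Slc2a1 read 10.01 and 9.75 on the OX86 arrays and 9.94 and 10.23 on the isotype arrays. The groups overlapped, and the log2 change was -0.20 (95% interval -0.75 to 0.34). Slc2a3 read 11.12 and 11.08 on the OX86 arrays, between the isotype values of 11.27 and 11.01, with a change of -0.035 (-0.54 to 0.47).

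Glucose is then trapped by hexokinase, and the 2 isoenzymes measured here had changes of opposite sign. Hk2, the inducible form of activated and growing cells, read 8.293 and 7.736 on the OX86 arrays and 8.294 and 8.463 on the isotype arrays. The groups were thus apart by a margin of 0.001 between OX86 1 and isotype 1, and most of the difference came from the OX86 2 array. Its change was -0.36 (-0.996 to 0.27), and -0.086 without OX86 2 and -0.18 without background correction. Hk1, the form made by most cells, read 8.19 and 7.73 on the OX86 arrays and 7.64 and 7.87 on the isotype arrays, a change of 0.21 (-0.39 to 0.81) that was -0.026 without OX86 1 and 0.099 without background correction.

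Phosphofructokinase commits the sugar to glycolysis, and its 3 subunit genes were all detected. Pfkl, the liver-type subunit, read 10.13 and 9.73 on the OX86 arrays and 9.81 and 10.13 on the isotype arrays, a change of -0.041 (-0.64 to 0.56). Pfkp, the platelet-type subunit, read 10.16 and 9.85 on the OX86 arrays and 9.77 and 10.21 on the isotype arrays, a change of 0.018 (-0.59 to 0.62). In both, the spread between arrays of a group exceeded the difference between groups many times over. Pfkm, the muscle-type subunit, had the tightest replicates of the 26 genes, with 8.72 and 8.73 on the OX86 arrays and 8.80 and 8.85 on the isotype arrays. Its groups were apart, but the change was small, -0.098 (-0.56 to 0.37), and its other tested probes had -0.11 and 0.13. Pfkfb3, which makes the allosteric activator of phosphofructokinase, was below detection on all 4 arrays, with deposited signals of 286.7 and 246.9 on OX86 arrays and 267.0 and 244.7 on isotype arrays.

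The later steps of the pathway also overlapped between groups at every gene detected. Aldoa, the aldolase of most tissues, read 11.15 and 11.48 on the OX86 arrays and 11.09 and 11.75 on the isotype arrays, a change of -0.10 (-0.82 to 0.61). Tpi1, which interconverts the triose phosphates, read 10.68 and 10.60 on the OX86 arrays and 10.64 and 10.75 on the isotype arrays, a change of -0.052 (-0.53 to 0.42). The groups overlapped in both. Gapdh, which oxidizes glyceraldehyde phosphate and is often used as a loading control, read 13.54 and 13.68 on the OX86 arrays and 13.45 and 13.74 on the isotype arrays. Its change was 0.022 (-0.50 to 0.54), and its other probe had -0.0068. Pgk1, the first enzyme of the pathway to yield ATP, was below detection with its only listed probe, at deposited signals of 284.7 and 270.6 on OX86 arrays and 248.8 and 264.2 on isotype arrays. Pgam1, which shifts the phosphate on phosphoglycerate, read 7.69 and 8.03 on the OX86 arrays and 8.23 and 7.89 on the isotype arrays, a change of -0.20 (-0.78 to 0.39), and -0.094 without background correction. Pkm, the pyruvate kinase of proliferating cells, read 12.05 and 12.34 on the OX86 arrays and 11.99 and 12.44 on the isotype arrays, a change of -0.015 (-0.62 to 0.59). Splice forms of Pkm were not distinguished here.

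As a group, glucose entry and glycolysis had 12 tested genes of 16 listed, with 3 higher and 9 lower in mean with OX86 and a median change of -0.046. That median was -0.16 without isotype 1 and 0.062 without isotype 2. Relative to each gene's own mean, the median gene stood at 0.0092 and -0.056 on the OX86 arrays and at -0.092 and 0.16 on the isotype arrays. The isotype arrays therefore lay on either side of both OX86 arrays. For 10 of these 12 genes isotype 2 read above isotype 1, against 48.5% of all tested probes. For 10 of 12 the change between groups was also smaller than the gap between the 2 arrays in both groups, against 48.2% of all tested probes.

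**Figure D2:**
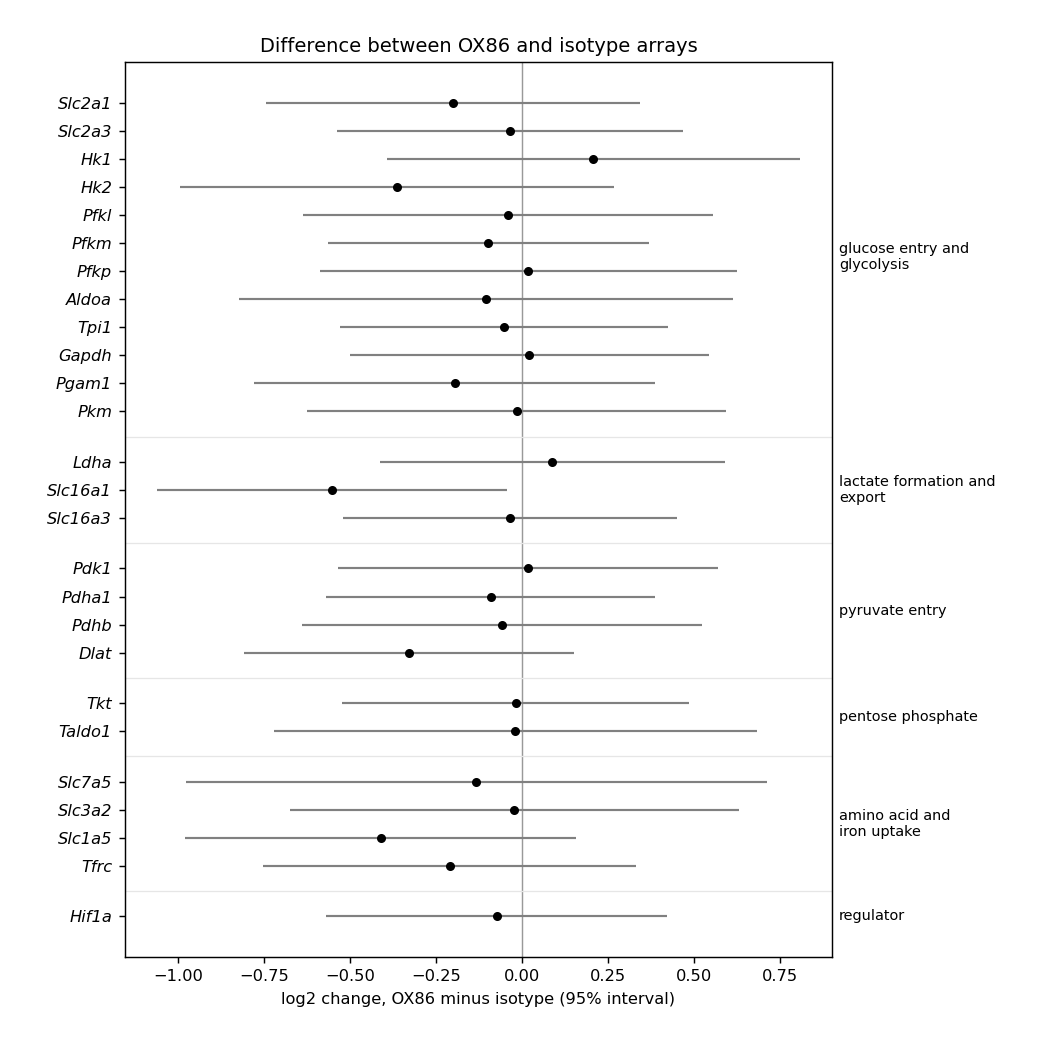
Log2 change of each detected gene, OX86 minus isotype, as a point with its 95% interval from limma. The interval of Slc16a1, -1.06 to -0.04, is the only 1 of the 26 that does not include 0, and 0 genes passed after adjustment.

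Pyruvate not used in mitochondria becomes lactate, which leaves through monocarboxylate transporters. Ldha, the lactate dehydrogenase subunit that favours lactate formation, read 12.67 and 12.65 on the OX86 arrays and 12.44 and 12.70 on the isotype arrays. Its change was 0.088 (-0.41 to 0.59), with the OX86 values inside the isotype range. Slc16a3, a lactate exporter of strongly glycolytic cells, was near the detection limit, detected on 1 OX86 array and 1 isotype array. It read 5.90 and 5.80 on the OX86 arrays and 5.97 and 5.80 on the isotype arrays, a change of -0.035 (-0.52 to 0.45).

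Slc16a1, a transporter that carries lactate in either direction and is induced in activated T cells, had the largest change in size of the 26 genes with all arrays and background correction. It read 5.87 and 5.89 on the OX86 arrays and 6.29 and 6.57 on the isotype arrays, so the groups did not overlap. The change was -0.55 (-1.06 to -0.04), or 0.681 times the isotype signal, with limma's p at 0.0377 unadjusted and 0.9999 after Benjamini-Hochberg adjustment. By unadjusted p it ranked 304 of 13338 probes. The signal was close to background, with deposited detection p-values of 0.0476 and 0.0401 on the OX86 arrays and 0.00627 and 0.0113 on the isotype arrays. Before normalization the groups overlapped, at deposited signals of 317.0 and 324.1 on the OX86 arrays and 356.4 and 318.3 on the isotype arrays. Isotype 2 was also the array with the lowest median deposited signal, 296.4, so such overlap may reflect the array. In the authors' processed values the groups were apart, at 315.8 and 316.9 on the OX86 arrays and 337.7 and 354.7 on the isotype arrays. Without background correction the change was -0.13, which ranked 4 in size, after Hk2, Slc2a1 and Tfrc, and it also ranked 4 in the authors' processed values and without OX86 1. Leaving out any 1 array gave changes from -0.69 to -0.41.

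Pyruvate entry into mitochondria showed small differences with 1 gene apart. Pdk1, the kinase that holds pyruvate dehydrogenase inactive, read 9.50 and 9.14 on the OX86 arrays and 9.39 and 9.21 on the isotype arrays, a change of 0.017 (-0.54 to 0.57). The 2 subunit genes of the first component of the complex also overlapped between groups. Pdha1 read 10.84 and 10.98 on the OX86 arrays and 11.03 and 10.97 on the isotype arrays, a change of -0.091 (-0.57 to 0.39). Pdhb read 9.26 and 9.39 on the OX86 arrays and 9.61 and 9.15 on the isotype arrays, a change of -0.058 (-0.64 to 0.52). Dlat, the acetyltransferase core of the complex, read 6.92 and 6.77 on the OX86 arrays and 7.14 and 7.21 on the isotype arrays. Both OX86 arrays were below both isotype arrays, and the change of -0.33 (-0.81 to 0.15) exceeded the gap between arrays in each group without passing the test. It kept its sign with each array left out, from -0.41 to -0.25, and was -0.11 without background correction. The median change of the 4 genes was -0.075.

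The pentose phosphate pathway was measured through Tkt and Taldo1, the transketolase and transaldolase that link its sugars back to glycolysis. Tkt read 10.98 and 10.90 on the OX86 arrays and 10.84 and 11.09 on the isotype arrays. Taldo1 read 10.94 and 11.01 on the OX86 arrays, between isotype values of 10.64 and 11.35 that lay 0.71 apart. The change was -0.019 for each, with intervals of -0.52 to 0.48 for Tkt and -0.72 to 0.68 for Taldo1. Without isotype 2 the Taldo1 change was 0.34 and without isotype 1 it was -0.38, and the median of both genes was 0.22 and -0.26 in those fits.

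Amino acid and iron uptake had a median change of -0.17, with 4 of 4 genes lower in mean and 0 past the test. That median was -0.013 without isotype 1, -0.36 without isotype 2 and -0.36 without OX86 1. With median scaling Slc7a5 had 0.011 and Slc3a2 0.097, both below the median of 0.12 that all tested probes then had. Slc1a5, the glutamine transporter, read 6.504 and 6.136 on the OX86 arrays and 6.857 and 6.605 on the isotype arrays. Its groups did not overlap, and its change was -0.41 (-0.98 to 0.16), from -0.59 to -0.23 with an array left out. The other Slc1a5 probe was detected on both isotype arrays and on 0 OX86 arrays, so it passed the filter through the isotype group alone. It was at least 1.51-fold higher on the isotype arrays, with normalized log2 means of 5.62 on OX86 arrays and 6.42 on isotype arrays. As this probe passed through the group where it was high, its value is not support for the change of Slc1a5. At the Slc1a5 probe with the highest mean signal, as with Slc16a1, the deposited signals before normalization overlapped. They were 350.9 and 337.1 on the OX86 arrays and 409.4 and 319.6 on the isotype arrays. In the authors' processed values this probe was apart between groups, at 350.3 and 329.1 on the OX86 arrays and 375.6 and 356.8 on the isotype arrays. Without background correction the change of that probe was -0.11.

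Slc7a5 and Slc3a2 encode the light and heavy chains of the LAT1 transporter of large neutral amino acids. Slc7a5 read 10.53 and 9.65 on the OX86 arrays and 10.42 and 10.02 on the isotype arrays, a change of -0.13 (-0.98 to 0.71). Its OX86 arrays were 0.88 apart, the widest gap among the 26 genes. Slc3a2 read 6.96 and 7.58 on the OX86 arrays and 7.33 and 7.26 on the isotype arrays, a change of -0.023 (-0.68 to 0.63). Between the OX86 arrays the 2 chains thus ran opposite ways, OX86 1 being the higher for Slc7a5 and the lower for Slc3a2. Tfrc, the transferrin receptor that brings in iron, read 9.09 and 9.22 on the OX86 arrays and 9.54 and 9.19 on the isotype arrays. Its change was -0.21 (-0.75 to 0.33), -0.22 at its other probe, and -0.033 without isotype 1.

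Hif1a, which drives many of these genes when its protein is stable, read 10.52 and 10.76 on the OX86 arrays and 10.70 and 10.73 on the isotype arrays. The groups overlapped, with a change of -0.073 (-0.57 to 0.42). Its protein, the level at which oxygen acts on it, was not measured.

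**Figure D3:**
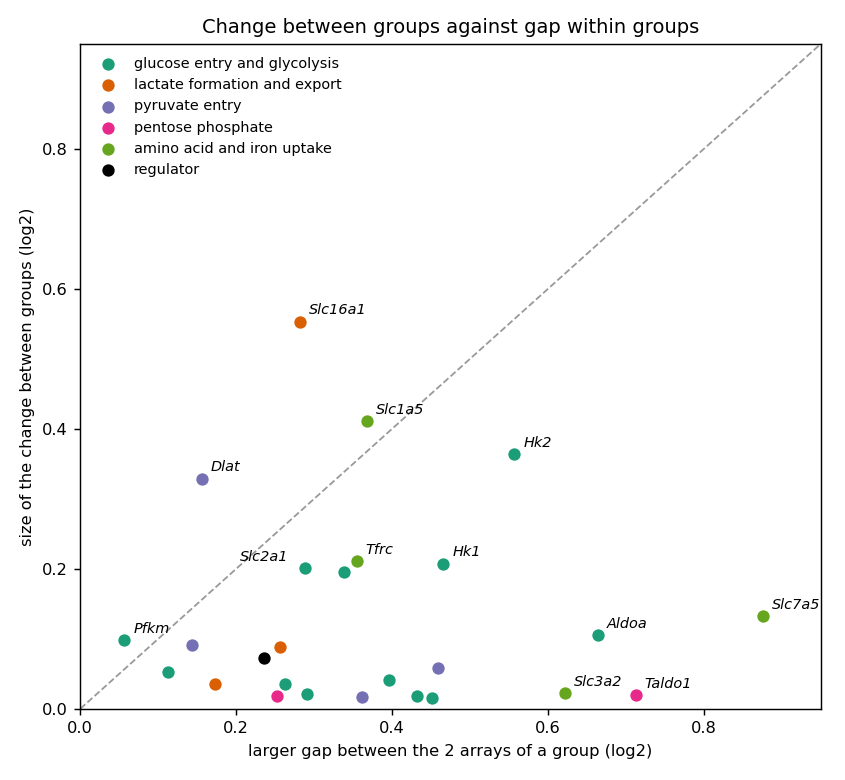
Size of the change between groups (vertical) against the larger of the gaps between the 2 arrays of a group (horizontal), both in log2 units, with points coloured by role and the dashed line marking equal values. The change exceeds both gaps for 4 genes, Slc16a1, Slc1a5, Dlat and Pfkm, which lie above the line, and 22 lie below it.

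The gap between the 2 arrays of a group set the scale for all of these genes. The median gap over the 26 genes was 0.20 between OX86 arrays and 0.26 between isotype arrays, against a median size of change between groups of 0.081. Over all tested probes the median gap was 0.22 between OX86 arrays and 0.29 between isotype arrays, and the median size of change was 0.15. The change was smaller than the larger gap for 22 of 26 genes, or 84.6%, against 83.7% of all tested probes. It was smaller than both gaps for 17 of 26, or 65.4%, against 48.2% of all tested probes, and it exceeded 0.5 for 1 of 26, or 3.85%, against 8.09%. Over all tested probes, the 95% interval reached 0.56 to either side of the change at the median, several times the median size of change of these genes.

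**Figure D4:**
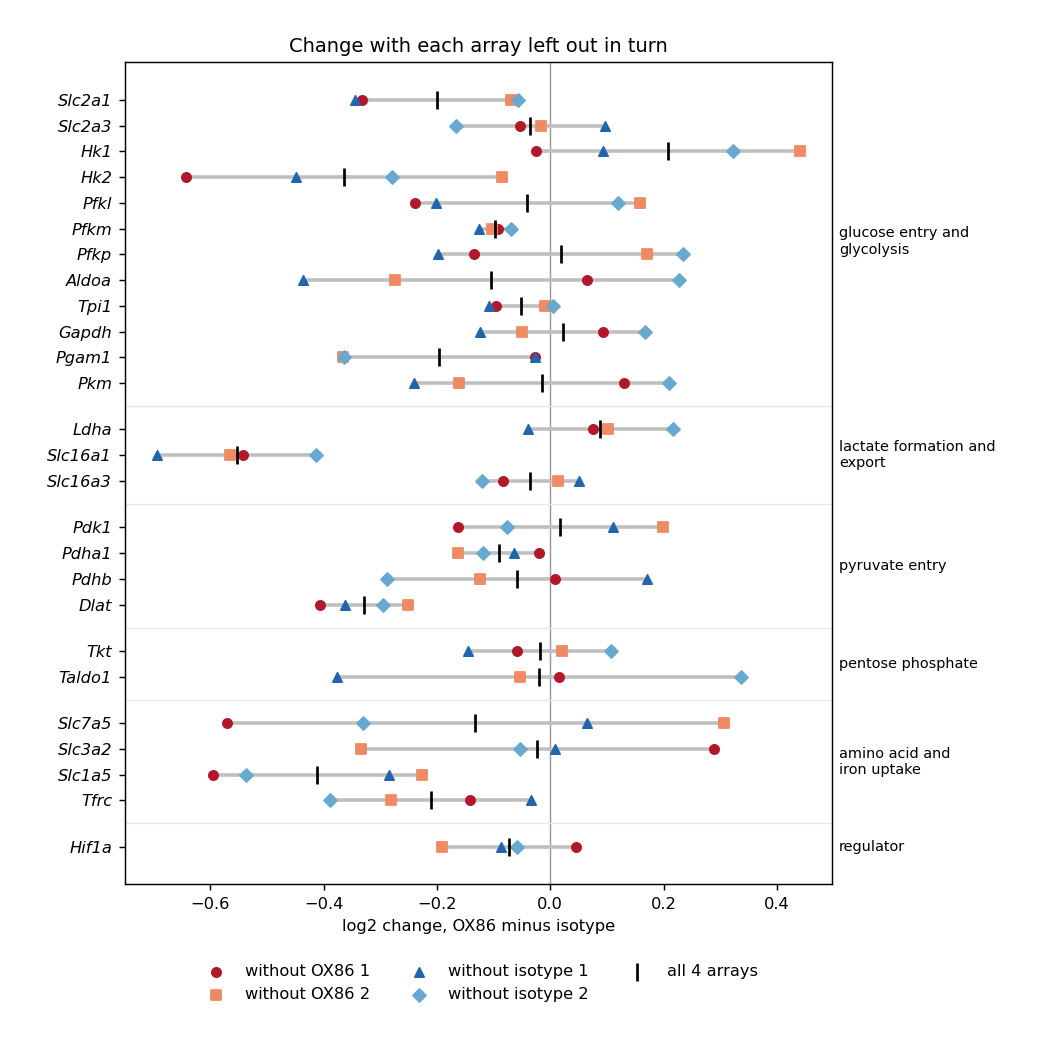
Log2 change of each detected gene with all 4 arrays (black bar) and with each array left out in turn (symbols), OX86 minus isotype, joined by a grey line. The sign turns for 17 of 26 genes, and Slc16a1, Slc1a5, Dlat, Hk2 and Pfkm are among the 9 that stay lower.

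Leaving out single arrays turned the sign of the change for 17 of the 26 genes, among them Gapdh, Pkm, Ldha, Aldoa, Tkt, Taldo1, Slc7a5 and Hif1a. The 9 genes that stayed lower were Slc2a1, Hk2, Pfkm, Pgam1, Slc16a1, Pdha1, Dlat, Slc1a5 and Tfrc. Several of these 9 shrank to little without 1 array: Slc2a1 had -0.057 without isotype 2, Pgam1 -0.027 without isotype 1 and Pdha1 -0.020 without OX86 1. Among the 8 genes with more than 1 tested probe, the probes differed in sign for Pfkm, Tpi1 and Gapdh, where all values lay between -0.17 and 0.13.

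Promoters are shown because Hif1a is among the genes and binds the hypoxia-response element. The 4 shown have the lowest unadjusted p among genes with a core of that element in the window. Windows of 300 bases, 250 before and 50 after the annotated start, came from RefSeq (GRCm38.p6) and matched 23 of the 26 genes. Slc2a3, Slc7a5 and Slc1a5 had no entry. The cores ACGTG and GCGTG were searched on both strands, and the E-box CACGTG, bound by Myc among others, contains ACGTG on either strand. Capitals mark these motifs, written as read on the gene's strand, so that CACGT and CACGC are cores on the opposite strand. The windows lie at chr3:104638414-104638713 (plus strand) for Slc16a1, chr6:82774405-82774704 (minus strand) for Hk2, chr16:32608646-32608945 (plus strand) for Tfrc and chr4:119108495-119108794 (plus strand) for Slc2a1.
Slc16a1: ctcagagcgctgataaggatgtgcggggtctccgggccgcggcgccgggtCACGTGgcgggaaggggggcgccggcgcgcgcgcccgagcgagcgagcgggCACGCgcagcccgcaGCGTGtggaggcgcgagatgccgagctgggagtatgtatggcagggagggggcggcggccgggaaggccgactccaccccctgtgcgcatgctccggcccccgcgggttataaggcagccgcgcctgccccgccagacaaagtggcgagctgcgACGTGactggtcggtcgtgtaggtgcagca
Hk2: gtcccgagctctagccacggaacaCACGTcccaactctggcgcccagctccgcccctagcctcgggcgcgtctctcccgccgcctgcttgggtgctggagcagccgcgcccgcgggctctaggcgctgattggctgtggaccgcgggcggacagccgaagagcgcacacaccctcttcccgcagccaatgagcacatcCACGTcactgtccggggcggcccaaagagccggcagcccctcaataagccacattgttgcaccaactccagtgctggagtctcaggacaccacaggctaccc
Tfrc: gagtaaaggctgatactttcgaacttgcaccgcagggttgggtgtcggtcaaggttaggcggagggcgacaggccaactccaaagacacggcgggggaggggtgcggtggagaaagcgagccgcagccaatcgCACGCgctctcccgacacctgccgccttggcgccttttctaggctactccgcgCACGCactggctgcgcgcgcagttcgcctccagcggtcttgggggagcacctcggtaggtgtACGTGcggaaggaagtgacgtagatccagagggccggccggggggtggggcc
Slc2a1: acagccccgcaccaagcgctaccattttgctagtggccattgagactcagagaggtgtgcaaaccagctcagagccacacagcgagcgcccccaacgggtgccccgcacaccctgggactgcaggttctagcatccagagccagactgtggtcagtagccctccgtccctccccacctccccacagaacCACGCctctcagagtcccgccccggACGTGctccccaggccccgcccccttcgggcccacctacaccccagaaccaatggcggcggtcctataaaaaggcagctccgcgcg
Counted from 0 at the annotated start, the E-box of Slc16a1 begins at -200 and a further ACGTG lies at 20, while the cores of Hk2 begin at -226 and -52. A core was present in at least 1 window of 21 of 23 genes, or 91.3%. The share was 65.1% of 7653 protein-coding genes with a tested probe and a window. Counted by window, a core was in 26 of the 33 windows of the 23 genes, or 78.8%, against 43.8% of all 32851 windows. Unlike the share of 65.1%, that of 43.8% was not limited to protein-coding genes with a tested probe. The shares by window are therefore not a like-for-like comparison. Dlat and Tpi1 had no core in their windows. The E-box was found in 4 of 23 genes, Slc16a1, Ldha, Pfkm and Hif1a, or 17.4%, against 11.5% of those protein-coding genes. These matches describe letters in the windows. Whether the motifs bear on any change was not tested.

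Other genes of the same pathways were counted from lists of 85 genes, of which 47 were tested and 0 passed in limma with Benjamini-Hochberg adjustment. Their median change was -0.015, with 22 higher and 25 lower in mean. The groups did not overlap for 9 higher genes, 19.1% of the 47 against 13.9% of all tested probes, and for 3 lower genes, 6.38% against 13.1%. Pklr, among the 9, passed the filter through the OX86 arrays alone. Further glycolytic genes divided evenly, 7 higher and 7 lower. Eno3, the muscle-type enolase, read 8.78 and 8.43 on the OX86 arrays and 8.21 and 8.35 on the isotype arrays, a change of 0.33 (-0.21 to 0.87), and 0.16 without OX86 1. Adpgk, an ADP-dependent glucokinase, had -0.27 (-0.75 to 0.22). Pklr, the pyruvate kinase of liver and red cells, was not detected on either isotype array and was at least 1.05-fold higher on the OX86 arrays. As it passed through the group where it was high, neither that value nor its place among the 9 is support for a difference.

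Further genes of pyruvate entry were 2 higher and 3 lower in mean, with 0 apart. The kinase Pdk4 had a change of -0.29 (-0.99 to 0.42), which was 0.064 without isotype 1, and Dld, the shared dehydrogenase subunit, had 0.17 (-0.61 to 0.94), which was -0.25 without isotype 2. The phosphatase Pdp1 had 0.12 (-0.46 to 0.69), and -0.093 without OX86 2. Further pentose phosphate genes were 3 higher and 3 lower. Pgls, the lactonase of the oxidative branch, read 9.95 and 9.75 on the OX86 arrays and 9.64 and 9.64 on the isotype arrays, a change of 0.21 (-0.28 to 0.70). The ribokinase Rbks had 0.32 (-0.18 to 0.82), and 0.19 without isotype 2. Prps2, which activates ribose for nucleotide synthesis, had 0.31 (-0.35 to 0.96), and -0.0054 without isotype 2.

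Among further nutrient transporters, 3 were higher and 6 lower in mean. Slc43a2, a transporter of large neutral amino acids, read 6.75 and 7.06 on the OX86 arrays and 6.22 and 6.41 on the isotype arrays. Its groups were apart, with a change of 0.59 (0.06 to 1.13) opposite in sign to that of Slc1a5, and its other probe had 0.089. Slc38a1, another glutamine transporter, had -0.16 (-0.71 to 0.39), which was 0.038 without OX86 2, and Slc7a6 had 0.22 (-0.82 to 1.26), which was -0.38 without isotype 2. Of the regulators of hypoxia and nutrient responses, 7 were higher and 6 lower. Mlx, a partner of glucose-sensing transcription factors, read 7.79 and 7.68 on the OX86 arrays and 7.33 and 6.49 on the isotype arrays. Its change of 0.82 (0.05 to 1.60) was 0.41 without isotype 2, and its other probe had 0.35. Txnip, a glucose-induced inhibitor of glucose uptake, read 11.91 and 11.79 on the OX86 arrays and 11.70 and 11.55 on the isotype arrays, a change of 0.23 (-0.26 to 0.71). Egln3, a hydroxylase that marks Hif1a for breakdown, had 0.42 (-0.24 to 1.08), and 0.098 without isotype 2. Of the 13 tested regulators 5 were apart between groups, or 38.5%, against 26.9% of all tested probes. They were these 3 and, with OX86 the lower, Egln1 with -0.21 (-0.73 to 0.30) and Myc with -0.22 (-0.75 to 0.32).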

How the data were processed

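The authors deposited, for 2 OX86 and 2 isotype arrays, a table of signal intensity on a linear scale with a detection p-value for each probe, and a second table of processed intensity. Per the submitters' processing notes BeadStudio was used, with a version and parameters not given in the sources used here. Deposited signals were 194.3 or higher. Then neqc of limma 3.58.1 (R 4.3.3) estimated background from the detection p-values, then applied an offset of 16, quantile normalization and log2. Probes detected at p under 0.05 on at least 2 arrays were tested, 13338 of 25697, with lmFit and eBayes (OX86 minus isotype, no covariate, two-sided) and Benjamini-Hochberg adjustment at 0.05. Symbols came from the platform annotation, which gave 23978 probes 1 symbol, 0 several and 1719 none. Probe sequences were not used, so cross-hybridisation among isoenzyme genes was not assessed.

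Every member is named, and other pathway genes by up to 3 of the smallest unadjusted p in a list, with Egln1 and Myc added. The members and lists were chosen with earlier results of these data known, so medians and counts are descriptions. The fit was tested on simulated data. The count of genes lower in mean under each setting was added after seeing the data. The processed table served as an alternative.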

Additional observations from a re-analysis of the deposited data

How the results depend on the processing

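The count of probes past the adjusted threshold was 0 under each of 11 alternatives, with 102 to 1540 probes at an unadjusted p under 0.05 against 444 as reported, and no member passed in any of them. Without isotype 1 that count was 1540, without OX86 1 it was 196 and without OX86 2 it was 233. With the replicate number as a block, log2 changes were the same and 0 probes passed, with 522 at an unadjusted p under 0.05. Deviations of same-numbered arrays correlated at 0.066 over tested probes, and nothing in the labels says that a number marks a shared source. Median scaling moved the median change of all tested probes to 0.12. Under it the count of genes lower in mean was 8, and median changes were 0.090 for glucose entry and glycolysis, 0.052 for pyruvate entry, 0.11 for pentose phosphate and 0.068 for all members. It gave 0.10 for Slc2a3, 0.10 for Pfkl, 0.036 for Pfkm, 0.039 for Aldoa, 0.079 for Tpi1, 0.12 for Pkm, 0.028 for Pdha1, 0.077 for Pdhb, 0.10 for Tkt, 0.12 for Taldo1, 0.011 for Slc7a5, 0.097 for Slc3a2 and 0.059 for Hif1a, so the sign of each of these turned. The size of the move differed between genes: Slc2a1 went from -0.20 to -0.045, Slc16a1 from -0.55 to -0.48 and Slc16a3 from -0.035 to -0.060. Under this scaling 20 of 26 members lay below the median of all probes, against 21 as reported. The median for lactate formation and export was -0.23 over probes detected on all 4 arrays, where Slc16a3 drops out, and -0.096 with probes averaged per gene. Leaving out each array gave medians of -0.16 to 0.062 for glucose entry and glycolysis, -0.26 to 0.22 for pentose phosphate, -0.12 to 0.013 for lactate, -0.20 to 0.023 for pyruvate entry, -0.36 to -0.013 for amino acid and iron uptake and -0.12 to -0.064 for all members, and 16 to 19 members lower in mean. Single genes ran from -0.17 to 0.096 (Slc2a3), -0.026 to 0.44 (Hk1), -0.24 to 0.16 (Pfkl), -0.20 to 0.23 (Pfkp), -0.44 to 0.23 (Aldoa), -0.11 to 0.0044 (Tpi1), -0.12 to 0.17 (Gapdh), -0.24 to 0.21 (Pkm), -0.040 to 0.22 (Ldha), -0.12 to 0.051 (Slc16a3), -0.16 to 0.20 (Pdk1), -0.29 to 0.17 (Pdhb), -0.14 to 0.11 (Tkt), -0.38 to 0.34 (Taldo1), -0.57 to 0.31 (Slc7a5), -0.33 to 0.29 (Slc3a2) and -0.19 to 0.045 (Hif1a). The cause was not tested. A lone array in those fits is assumed to vary like the other group. Without background correction 9 of 26 changes were over 1.5 times smaller, Slc16a1, Slc1a5, Dlat, Hk2, Hk1, Pgam1, Pfkm, Slc16a3 and Slc3a2. No member changed sign without it, with an offset of 50, with the authors' processed values or without the filter. Signals near background limit Slc16a1, Slc16a3 and Slc1a5 most.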

Other observations

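Within-array differences between partner genes were computed for 6 pairs of isoenzymes or subunits, chosen by role after the files had been read, and are given as values with no test. Centred on the 4-array mean, Hk2 minus Hk1 was -0.24 and -0.33 on the OX86 arrays and 0.32 and 0.26 on the isotype arrays. The difference was -0.57, and the groups lay apart. Taken singly, 26.9% of all tested probes lay apart in either direction, and that share was not computed for pairs. Without background correction the change was -0.18 for Hk2 and 0.099 for Hk1, against -0.36 and 0.21 with it. Slc16a1 minus Slc16a3 was -0.32 and -0.20 on the OX86 arrays and 0.032 and 0.49 on the isotype arrays. Slc7a5 minus Slc3a2, the chains of 1 transporter, was 0.69 and -0.80 on the OX86 arrays and 0.22 and -0.11 on the isotype arrays, so the gap between OX86 arrays was far wider than the difference between groups of -0.11. The other 3 pairs had differences between groups of -0.17 for Slc2a1 minus Slc2a3, 0.059 for Pfkp minus Pfkl and 0.11 for Pdk1 minus Pdha1.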
